A study of Mus musculus with 12 samples.

Results

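Krt4 and Krt13 are the keratin pair that oesophageal epithelial cells make after they leave the basal layer, and the share of a library's reads that they take varied more than 3-fold among the 12 libraries described here. Each library held gene-level RNA-seq counts from mouse oesophageal epithelium that had been separated from its stroma mechanically. The count of Krt4 and Krt13 together was divided by all counts of the library, and the classes were chosen by this measured share, with 9% as the threshold: 6 of the 12 libraries lay above it and are called rich, and the other 6 lay below it and are called poor. The shares of the rich libraries were 13.9% in Control replicate 3, 13.8% and 12.8% in replicates 2 and 3 with active IKKβ, 10.4% in Stat3 loss replicate 3, and 11.6% and 13.4% in replicates 1 and 3 of the combined group. The poor libraries held 5.22% and 6.22% in Control replicates 1 and 2, 5.06% in replicate 1 with active IKKβ, 6.01% and 6.62% in Stat3 loss replicates 1 and 2, and 4.05% in combined replicate 2. The library just inside the rich class was Stat3 loss replicate 3, and the library just below the threshold was Stat3 loss replicate 2. Krt4 alone took 5.40 to 7.62% of counts in rich libraries and 1.79 to 3.21% in poor ones, and Krt13 took 5.02 to 6.32% and 2.26 to 3.41%. These values chose the classes, so they are given without a test, and both genes are left out of everything that follows.

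**Figure D1:**
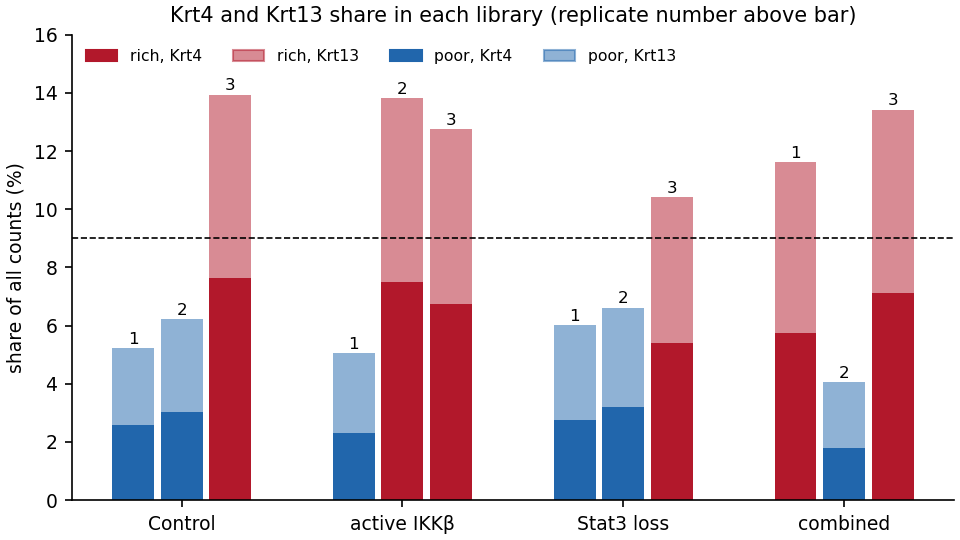
Share of all counts taken by Krt4 (solid) and Krt13 (pale) in each of the 12 libraries, as a percentage on the vertical axis, by genotype group, with the replicate number above each bar and the 9% threshold dashed. Each of the 4 groups holds at least 1 rich (red) and 1 poor (blue) library.

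All mice were C57BL/6 and 6 weeks old. The Control group carried 1 copy of a constitutively active Ikk2 at Rosa26 behind a floxed stop (ROSA26-StopFL-Ikk2ca+/L) and floxed Stat3 (Stat3L/L), without Cre. Active IKKβ libraries came from mice with ED/L2-Cre and the Ikk2ca allele, Stat3 loss libraries from mice with ED/L2-Cre and floxed Stat3, and combined libraries from mice with the Cre and both alleles. The ED/L2 promoter, from Epstein-Barr virus, drives Cre in oesophageal epithelial cells. Each group had 3 libraries. Rich libraries were 1 of 3 in Control, 2 of 3 with active IKKβ, 1 of 3 with Stat3 loss and 2 of 3 in the combined group, so 4 of 6 rich libraries and 2 of 6 poor ones carried active IKKβ, and 3 of 6 in each class carried Stat3 loss. Replicate 1 of every group had female sex-linked transcripts and the others male ones, and 1 rich and 3 poor libraries were replicate 1. Replicate 3 was rich in every group, so class goes with replicate number as well as with sex. Total counts were 19434987 to 30188363 in rich and 14816468 to 21071267 in poor libraries, with 15840 to 16369 and 15947 to 16799 genes detected. Stat3 itself had 139 to 194 CPM (CPM are read counts relative to the library total after TMM scaling) in the 6 libraries with Cre and floxed Stat3 and 157 to 239 CPM in Control and active IKKβ libraries; counts summed over a gene do not show whether floxed exons were missing.

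The oesophagus is lined by a stratified squamous epithelium that is renewed from a single proliferating basal layer. Basal cells carry keratins 5, 14 and 15 and the transcription factor p63. Cells that move up stop dividing, switch to Krt4 and Krt13, tie themselves together with desmosomes, and load the proteins and lipids that form the cornified envelope of the surface, which in mice keratinises. 

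Rich and poor libraries were compared in 1 edgeR quasi-likelihood model over all 12 libraries with the genotype group as a term (adjusted p by Benjamini-Hochberg over all genes tested, 6 rich against 6 poor libraries). Because a measured share sorted the libraries, a call below says that a gene goes with the Krt4 and Krt13 share among these libraries, not that a genotype or treatment changed it. The labels do not say that libraries of a group came from separate animals, so the p-values measure the spread between these libraries. In bulk tissue, fewer cells of a type and less RNA per cell cannot be told apart. Differences are log2, rich minus poor, with the standard error (SE) of the fit. Of 14434 genes tested, 4132 (28.6%) passed an adjusted p of 0.05, 2334 (16.2%) of them higher in rich libraries and 1798 (12.5%) lower. At least a 2-fold difference was met by 455 of the higher and 157 of the lower genes. All 6 rich libraries lay above all 6 poor ones for 1253 genes (8.68%) and below them for 395 (2.74%). Scaling to plain library totals moved the median of all genes from -0.05 to -0.36 and the called genes to 1006 higher and 6786 lower (12.9% of calls higher, against 56.5% with TMM scaling), where the TMM factors were 0.857 to 0.943 in rich and 1.07 to 1.16 in poor libraries. The differences below are therefore relative to the bulk of genes. Without Control replicate 3 the calls were 2324 (1490 higher, 834 lower) and without active IKKβ replicate 1 they were 2687 (1792 higher, 895 lower). Replicate number carries sex here and also goes with class, since replicate 3 was rich in every group. With a term for it 1727 genes were called (1318 higher, 409 lower). With replicates 2 and 3 only, all male, 1446 were called (1123 higher, 323 lower). What lowered these counts was not tested.

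The genes of differentiated squamous cells were mostly higher in rich libraries. Of 35 tested members of a list of suprabasal genes, 24 were higher and 0 lower, with a median of 0.93 against -0.05 over all genes. Tgm3, a transglutaminase that cross-links envelope proteins (chromosome 2, 130012349 to 130050399, plus strand), had a lowest, median and highest level of 4580.4, 5680.3 and 7145 CPM in rich and 1677, 2642 and 3289 CPM in poor libraries. The classes did not overlap, and the difference was 1.36 ± 0.13 (edgeR adjusted p = 3.43e-05). Scel, which encodes the envelope precursor sciellin, stood at 242, 335 and 446 CPM against 86.3, 122 and 150.4 CPM, again without overlap, a difference of 1.56 ± 0.10 (edgeR adjusted p = 4.16e-06). Tmprss11d, a membrane-anchored airway-type trypsin, was higher by 1.49 ± 0.096 and Pdzk1ip1 by 1.15 ± 0.082. Not every member passed: Crnn, the cornulin gene, was nearly absent at 0 to 1.09 CPM, and Anxa1 differed by 0.10 ± 0.19 (edgeR adjusted p = 0.716). The urothelial-type plaque genes Upk1a (-0.71 ± 0.51) and Upk1b (-0.82 ± 3.17) had negative values and did not pass the test.

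The cornified envelope list had the largest median of the 39 lists with tested members, 1.8. Of its 30 tested members 22 were higher, 0 lower, and the lowest difference was 0.07, in Sprr2e. The envelope is a shell of cross-linked small proteins, many of them encoded side by side in the epidermal differentiation complex. Sprr3, a small proline-rich protein of oesophageal envelopes (chromosome 3, 92456502 to 92458720, minus strand), had 4055, 5540.3 and 7821 CPM in rich and 364, 1289 and 1670.2 CPM in poor libraries as lowest, median and highest. Its difference was 2.58 ± 0.25 (edgeR adjusted p = 5.99e-05), and the lowest rich library still held more than any poor one. Lor, for loricrin (chromosome 3, 92080271 to 92083142, minus strand), went from 698, 2357 and 2614 CPM in poor to 4763, 7298 and 9644 CPM in rich libraries, 1.99 ± 0.29 (edgeR adjusted p = 0.000956). Ivl, for involucrin, was scarce at 3.01, 8.57 and 13.1 CPM against 1.16, 3.08 and 3.74 CPM, and its classes overlapped although it passed the test (1.63 ± 0.35, edgeR adjusted p = 0.00673). Sprr1a (2.42 ± 0.20), the late envelope protease gene Asprv1 (2.01 ± 0.17) and Crct1 (1.8 ± 0.16) had the smallest p of the list. Summed over the list, rich libraries held 18376 to 34690 CPM and poor ones 3436 to 9171 CPM. Members of the Sprr2 and Lce families have near-identical copies, and how reads between copies were assigned is not given in the sources used here, so their single values are uncertain.

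Promoters of Sprr1a and Lor, of Scel, which is outside the cornified envelope list, and of the sterol gene Hmgcs1 are printed. The AP-1 letters recur in promoters of the cornified envelope list and CCAAT in those of the cholesterol list. They run from 250 bases before to 50 after the start, 5′ to 3′ on the gene's strand, from RefSeq on build GRCm38.p6. Capitals in the first 3 mark the AP-1 motif TGAGTCA or its reverse complement, and in Hmgcs1 they mark CCAAT and a sterol element, TCACNCCAC, on either strand. Sprr1a lies at chr3:92485832-92486131 (minus strand), Lor at chr3:92083093-92083392 (minus strand), Scel at chr14:103513091-103513390 (plus strand) and Hmgcs1 at chr13:119690101-119690400 (plus strand).
Sprr1a: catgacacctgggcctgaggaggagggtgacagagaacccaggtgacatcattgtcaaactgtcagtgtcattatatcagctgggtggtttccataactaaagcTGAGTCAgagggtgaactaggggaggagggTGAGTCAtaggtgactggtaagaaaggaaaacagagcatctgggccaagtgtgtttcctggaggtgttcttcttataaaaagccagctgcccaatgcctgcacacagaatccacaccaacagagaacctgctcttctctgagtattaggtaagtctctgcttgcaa
Lor: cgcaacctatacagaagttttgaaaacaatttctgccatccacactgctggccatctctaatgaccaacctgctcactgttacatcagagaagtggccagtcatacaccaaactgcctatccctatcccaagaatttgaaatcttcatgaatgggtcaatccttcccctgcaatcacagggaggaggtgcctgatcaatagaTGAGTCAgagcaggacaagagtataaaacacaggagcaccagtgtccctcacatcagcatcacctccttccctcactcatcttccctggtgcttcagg
Scel: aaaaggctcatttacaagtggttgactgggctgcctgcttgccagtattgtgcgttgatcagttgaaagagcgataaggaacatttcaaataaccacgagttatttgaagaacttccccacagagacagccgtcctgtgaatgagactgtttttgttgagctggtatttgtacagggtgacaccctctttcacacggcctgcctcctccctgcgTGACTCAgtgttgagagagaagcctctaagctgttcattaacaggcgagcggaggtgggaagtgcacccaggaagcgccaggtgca
Hmgcs1: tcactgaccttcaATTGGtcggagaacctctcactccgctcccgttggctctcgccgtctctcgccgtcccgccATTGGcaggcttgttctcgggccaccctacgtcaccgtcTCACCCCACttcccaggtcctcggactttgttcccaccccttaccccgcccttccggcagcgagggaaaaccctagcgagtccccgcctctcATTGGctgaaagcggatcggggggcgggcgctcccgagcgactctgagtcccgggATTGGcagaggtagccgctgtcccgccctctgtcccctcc
The AP-1 letters begin 146 and 116 bases before the start of Sprr1a, 48 before that of Lor and 36 before that of Scel. Of 30 cornified envelope genes with a single promoter entry, 10 held the AP-1 letters (33.3%), against 5.17% of all 22862 such promoters in the table and 3.78% of the 8150 among tested genes. Those 10 were Ivl, Lor, Sprr1a and 7 Sprr2 genes, and 2 of them, Sprr2e (0.07 ± 0.94) and Sprr2f (0.91 ± 0.75), were not called, so the letters are not a mark of the called members alone. The share was 4.57% of 1335 over all called higher genes, 11% of the 255 at least 2-fold higher and 3.53% of the 85 at least 2-fold lower. It was 0 of 18 in the ceramide list and 0 of 16 in the cholesterol list. CCAAT or its reverse complement was in 15 of 16 single-entry promoters of the cholesterol and fatty acid list (93.8%) against 38.7% of those of tested genes, and Hmgcs1 held 4 copies. The sterol element did not recur. It was in 1 of those 16 (6.25%), Hmgcs1 itself, in 1 of 14 in the basal list and in 1.1% of those of tested genes. In all 8 motifs were searched on both strands, 12 of 1231 AP-1 matches overlapped a match of another motif, and the capitals in Hmgcs1 do not overlap each other. A match describes the letters and shows no binding.

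The chromosome stretches that hold these gene families were counted too, with the list members above kept in. These counts therefore repeat part of the list counts and do not describe neighbours alone. In the stretch of chromosome 3 that holds the epidermal differentiation complex and its flanking genes (90511034 to 93564643, mm10 with GENCODE M21), 27 of 55 tested genes were higher and 4 lower (49.1% against the 16.2% over all genes). The serpin B cluster on chromosome 1 had 8 of 10 higher, the kallikrein cluster on chromosome 7 had 7 of 10, the Tmprss11 cluster on chromosome 5 had 4 of 5, and the interleukin 36 cluster on chromosome 2 had 4 of 4. In the keratin clusters the share of higher genes was nearer that over all genes (17.6% on chromosome 11 and 21.4% on chromosome 15). On chromosome 11, 3 of 17 tested genes were higher and 3 lower, and on chromosome 15, 3 of 14 were higher and 1 lower.

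**Figure D2:**
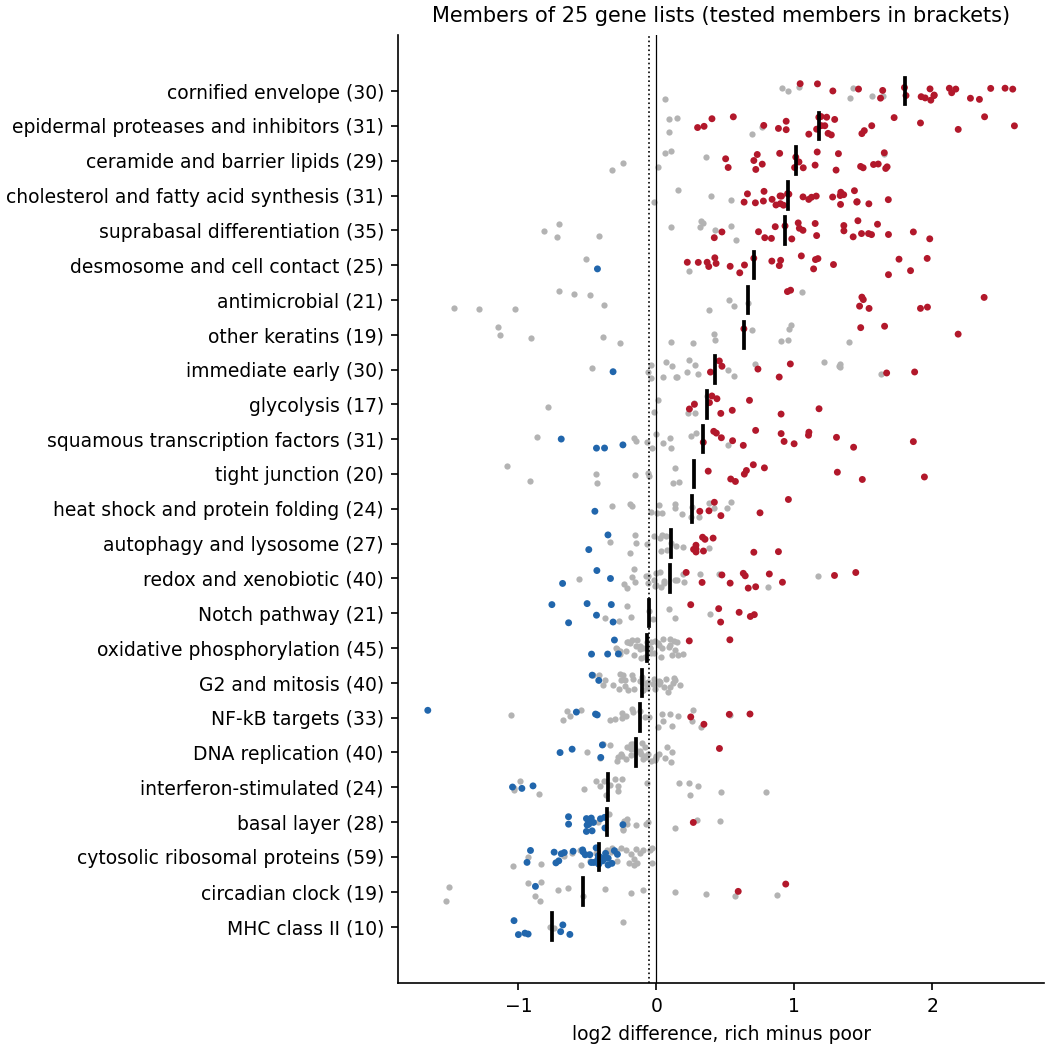
Log2 difference between rich and poor libraries (horizontal axis) for each tested member of 25 gene lists, with red for called higher, blue for called lower and grey for not called. Black bars are list medians and the dotted line is the median of all genes; the medians of the tight junction, heat shock, autophagy and redox lists change sign when libraries are scaled to their totals.

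Proteases and their inhibitors, which control the shedding of surface cells, were higher in 26 of 31 tested members and lower in 0 (median 1.18). Klk13 and Klk14 are kallikreins that cut the links between surface cells, and Spink5 encodes their inhibitor LEKTI. Protease and inhibitor were both higher: Klk14 was higher by 1.56 ± 0.12, Klk13 by 1.22 ± 0.089 and Spink5 by 1.16 ± 0.086. Spink5 had 524, 777 and 931 CPM in rich and 252, 326 and 372 CPM in poor libraries, without overlap. Serpinb3a, a serpin of the squamous cell carcinoma antigen family, was among the highest of all named genes at 958, 1627 and 2487 CPM against 139.7, 280.5 and 361 CPM, 2.60 ± 0.22 (edgeR adjusted p = 2.68e-05). It has close copies in its cluster, so its reads may be shared with them. Serpinb12 (2.38 ± 0.28) was close to it. Klk6 (0.15 ± 0.62), Klk11 (0.09 ± 0.16) and Cstb (0.09 ± 0.086) did not pass the test.

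Cell contacts followed. Of 25 tested desmosome and cell contact genes, 22 were higher and 1, the simple-epithelium desmoglein Dsg2 (-0.43 ± 0.099), was lower (median 0.71). Dsg1a, a desmoglein of upper layers, had 126, 163 and 237 CPM in rich and 37.6, 63.6 and 72.5 CPM in poor libraries and differed by 1.68 ± 0.13 (edgeR adjusted p = 7.57e-06). Gjb2, for connexin 26, differed by 1.84 ± 0.15, Dsc1 by 1.28 ± 0.11 and the plaque gene Dsp by 1.05 ± 0.17. Desmocollin 3, which is made from the basal layer upward, differed by 0.30 ± 0.10 (edgeR adjusted p = 0.0488), a call lost without any 1 library except Stat3 loss replicate 2 or 3. In the tight junction list 10 of 20 were higher and 0 lower, led by Cldn17 (1.94 ± 0.13), with Tjp1 (0.78 ± 0.11) and Ocln (0.65 ± 0.13) behind it. That list's median of 0.27 became -0.03 on library totals, where 6 were higher and 5 lower, and without Control replicate 3 its count of higher genes was 6. Ocln was not called on library totals.

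Lipid synthesis was the other broad block. Squamous cells near the surface make long-chain ceramides, which are packed into lamellar bodies and then sealed between the dead cells. Of 29 tested genes of ceramides and barrier lipids, 22 were higher and 0 lower (median 1.01). Elovl4, which extends very long fatty acids, had 317, 381 and 445 CPM in rich and 108, 136 and 161 CPM in poor libraries, a difference of 1.57 ± 0.093 (edgeR adjusted p = 3.59e-06). No rich library overlapped a poor one. Alox12b, a lipoxygenase that oxidises the linoleate of ceramides, differed by 1.67 ± 0.11, Sptlc3, a subunit of the enzyme that opens ceramide synthesis, by 1.66 ± 0.11, and the lamellar body transporter Abca12 by 1.65 ± 0.12. Fa2h (0.01 ± 0.68) and Aloxe3 (0.11 ± 0.25) did not pass the test.

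The cholesterol and fatty acid list was higher in 27 of 31 members, against 16.2% over all genes, and lower in 0 (median 0.95). In 24 of its members every rich library lay above every poor one, against 8.68% over all genes. Its members covered the mevalonate path from Hmgcs1 (0.64 ± 0.11) through Pmvk and Mvd (1.28 ± 0.16) to the late sterol steps of Ebp and Cyp51 (1.36 ± 0.12). Pmvk, phosphomevalonate kinase (chromosome 3, 89454541 to 89469013, plus strand), had 63.3, 89.2 and 102 CPM in rich and 31.8, 38.9 and 49.0 CPM in poor libraries, 1.06 ± 0.086 (edgeR adjusted p = 1.05e-05). Ebp, an X-linked sterol isomerase, differed by 0.84 ± 0.071, and Me1, which supplies NADPH for fatty acid synthesis, by 1.68 ± 0.12. Srebf2, whose product drives the pathway, was higher by 0.87 ± 0.10. Srebf1 (0.16 ± 0.085, edgeR adjusted p = 0.196) was not called. With single libraries left out, the higher genes numbered 21 to 23 in the ceramide list and 26 to 28 in the cholesterol list.

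**Figure D3:**
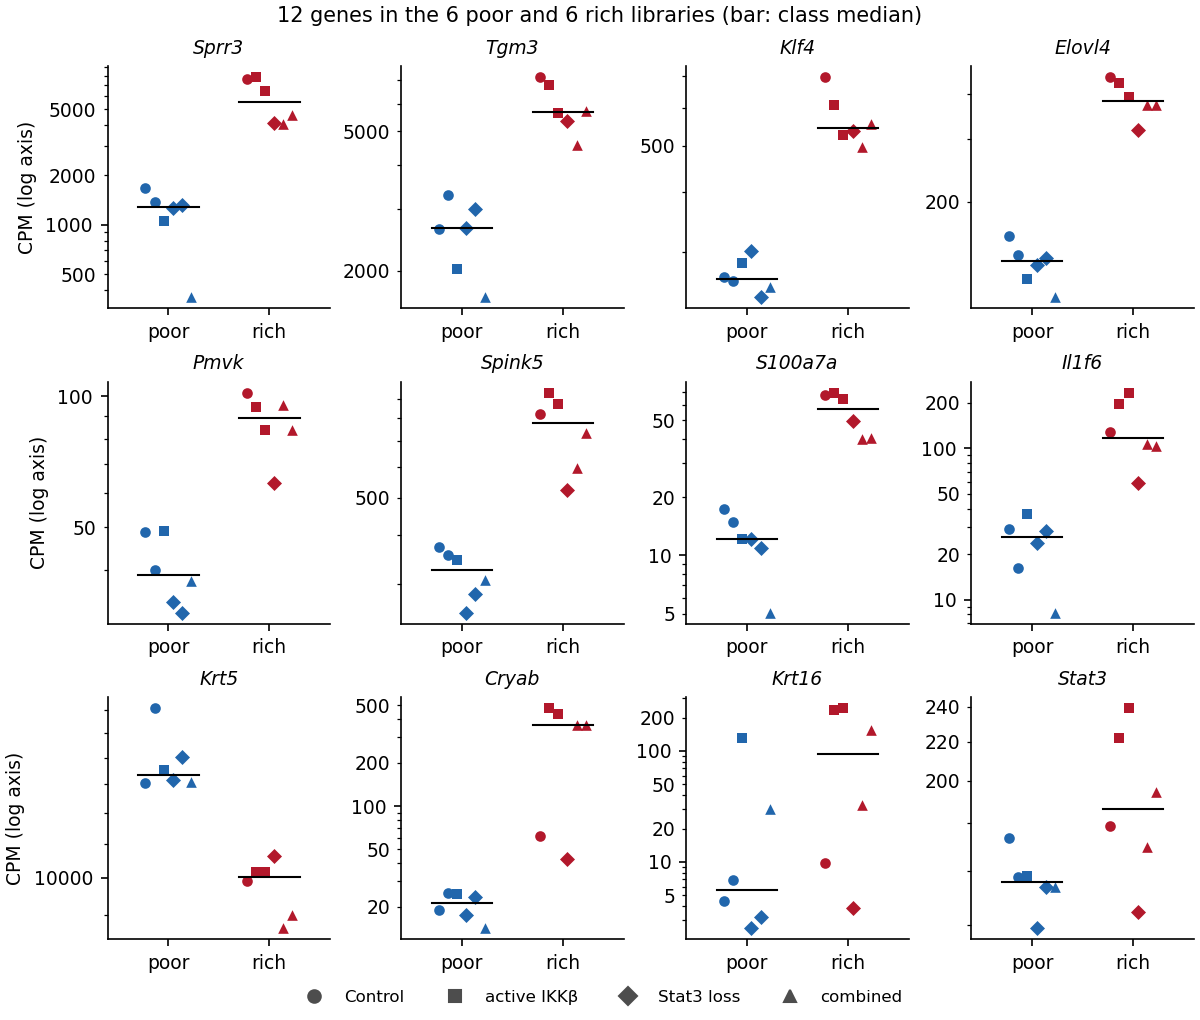
CPM of 12 genes on log axes in the 6 poor (blue) and 6 rich (red) libraries, with the symbol giving the genotype and the bar the class median. Poor and rich libraries do not overlap for the first 10 genes, Krt5 is the only one of these that is lower in rich libraries, and Krt16 and Stat3 overlap.

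Among transcription factors of squamous cells, 15 of 31 were higher and 4 lower (median 0.34, 0.04 on library totals). Klf4, which drives terminal differentiation in this epithelium (chromosome 4, 55527143 to 55532466, minus strand), had 496, 546 and 695 CPM in rich and 242, 264 and 302 CPM in poor libraries. The 6 rich libraries all lay above the 6 poor ones, and the difference was 1.11 ± 0.092 (edgeR adjusted p = 1.24e-05). Elf5, an ETS factor of epithelia, differed by 1.31 ± 0.080, and Hopx, a homeodomain protein without DNA contact, by 1.86 ± 0.15. Prdm1 (1.43 ± 0.15), Grhl1 (1.0 ± 0.11), Grhl3 (1.10 ± 0.13), Ovol1 (0.93 ± 0.16) and Zfp750 (0.72 ± 0.13) were higher too, all of them factors of late keratinocyte differentiation. The 4 lower ones were Ovol2 (-0.69 ± 0.16), Sox2 (-0.38 ± 0.091), Hes1 (-0.43 ± 0.11) and Trp63. Family members differed: Grhl2 was not called (edgeR adjusted p = 0.983), and Ovol1 and Ovol2 had opposite signs. With single libraries left out 11 to 18 of the 31 were higher and 0 to 5 lower, with 0 lower without combined replicate 2. Hes1 was also lost without active IKKβ replicate 1, and Trp63 without Control replicate 3. With a term for the replicate number 8 were higher and 0 lower. Sp6, a zinc finger factor of the Sp family outside the lists and named here after its values were seen, had the smallest p of all genes. It stood at 105, 139 and 151 CPM in rich and 40.6, 46.8 and 53.0 CPM in poor libraries (1.49 ± 0.061, edgeR adjusted p = 4.87e-07).

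Basal genes were lower in rich libraries, and with TMM scaling by less than suprabasal genes were higher. Of 28 tested basal genes 14 were lower, and 1, Wnt4 (0.27 ± 0.092), was higher (median -0.36). Krt5 (chromosome 15, 101707070 to 101712898, minus strand), the basal keratin, had 8668, 10026 and 10632 CPM in rich and 13044, 13328 and 16096 CPM in poor libraries. No library overlapped, yet the difference was -0.47 ± 0.082 (edgeR adjusted p = 0.00178). Krt15 (-0.51 ± 0.090), Krt14 (-0.47 ± 0.10) and Trp63 (-0.24 ± 0.064) were lower with overlap between the classes, and so were the basement membrane genes Lama5 (-0.64 ± 0.16), Lamb3 (-0.46 ± 0.089) and Itgb4 (-0.41 ± 0.094). Trp63 lost its call without Control replicate 3 or combined replicate 2, Lama5 without Control replicate 3 or active IKKβ replicate 1, Itgb4 without active IKKβ replicate 1, and Wnt4 without any of 9 single libraries. Krt14 was not called without the genotype term, and on library totals Wnt4 was at -0.03 and not called. The count of lower basal genes fell to 5 with a term for the replicate number and to 2 with replicates 2 and 3 alone. On library totals it rose to 22. The basal median was then -0.66 and the suprabasal median 0.63, so the smaller size of the basal differences depends on the scaling.

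Of 40 replication genes 4 were lower and 1 higher (median -0.15), and of 40 G2 and mitosis genes 2 were lower and 0 higher (median -0.10), against 12.5% lower over all genes. The lower replication genes numbered 2 without Control replicate 3 or combined replicate 2 and 11 without Stat3 loss replicate 3, and the lower mitosis genes 0 without active IKKβ replicate 1 and 5 without combined replicate 3. On library totals they were 20 and 18, and with a term for the replicate number 0 and 0. Rfc3, a clamp loader subunit, differed by -0.61 ± 0.11 and Dut, which clears dUTP, by -0.70 ± 0.14. Cdk1 differed by -0.47 ± 0.13, and that call was lost without Control replicate 3, active IKKβ replicate 1 or Stat3 loss replicate 3. Mki67 (-0.07 ± 0.20) and Mcm3 (-0.18 ± 0.20) were not called. Within genotypes the median of the replication genes ran from -0.68 in Control to 0.30 in Stat3 loss, and that of the mitosis genes from -0.50 in Stat3 loss to 0.37 in the combined group. The cytosolic ribosomal protein genes were lower in 28 of 59 and higher in 0 (median -0.42), with a median of 0.04 within Stat3 loss alone. Their count fell to 6 without Control replicate 3 and to 1 with a term for the replicate number, and many of these genes have processed copies that can take their reads.

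The Notch pathway, which moves keratinocytes out of the basal layer, had members on both sides. Its 21 tested members had 6 higher and 6 lower (median -0.05). The receptor gene Notch3 had 206, 242 and 250 CPM in rich and 122, 155 and 184 CPM in poor libraries, 0.60 ± 0.11 (edgeR adjusted p = 0.00192), and Notch2 was higher by 0.45 ± 0.091, a call lost on library totals. The feedback target Nrarp was higher by 0.71 ± 0.093. The ligand genes Jag2 (-0.50 ± 0.096) and Dll1 (-0.64 ± 0.15), the receptor-modifying Lfng (-0.76 ± 0.10) and the target Hes1 were lower, Hes1 only with active IKKβ replicate 1 and combined replicate 2 both present. Notch1 (-0.05 ± 0.12) and Jag1 (-0.03 ± 0.098) were not called. The count of lower members was 3 without active IKKβ replicate 1, and 1 with replicates 2 and 3 alone.

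Among keratins other than those of the basal layer, 4 of 19 were higher and 0 lower. Krt80, of cells close to cornification, had 118, 191 and 295 CPM against 16.5, 47.4 and 79.8 CPM (2.19 ± 0.21, edgeR adjusted p = 8.64e-05), and Krt23 was higher by 1.48 ± 0.22, Krt6b by 1.65 ± 0.48 and Krt32 by 0.63 ± 0.14. Krt6b lost its call without any of 7 single libraries, among them Control replicate 3 and the 3 of the active IKKβ group, and Krt32 without the genotype term. The wound-response keratins Krt6a (0.69 ± 0.29), Krt16 (0.97 ± 0.41) and Krt17 (-0.26 ± 0.38) and the epidermal pair Krt1 (0.27 ± 0.86) and Krt10 (0.43 ± 0.38) were not called. The Krt16 values divided by genotype within each class, which was not tested here. It had 32.9 to 242 CPM in the 4 rich libraries with active IKKβ and 3.82 and 9.87 CPM in the 2 without it. In poor libraries it had 30.2 and 131 CPM with active IKKβ and 2.52 to 6.85 CPM in the 4 without it.

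Epithelial cytokines and antimicrobial genes were higher in part. Il1f6 and Il1f8, older names of the interleukin 36 genes Il36a and Il36b, were at 59.0, 117 and 233 and 17.6, 27.7 and 43.9 CPM in rich libraries against 8.19, 26.1 and 36.7 and 1.16, 6.03 and 7.99 CPM in poor ones. Their differences were 2.45 ± 0.35 and 2.53 ± 0.33 (edgeR adjusted p = 0.00151 and 0.000522). Of 21 antimicrobial genes 9 were higher and 0 lower (median 0.66). S100a7a, an S100 protein of the epidermal differentiation complex, was at 40.0, 57.0 and 69.4 CPM against 5.05, 12.2 and 17.4 CPM, 2.38 ± 0.13 (edgeR adjusted p = 2.78e-06). Slpi, a secreted protease inhibitor (1.91 ± 0.19), and Rnase1 (1.54 ± 0.12) were higher as well. S100a8 (0.66 ± 0.44) was not called, while its partner S100a9 was (1.47 ± 0.17, edgeR adjusted p = 0.000134), except without the genotype term. Nlrp10, a pattern-recognition gene without a ligand-sensing repeat domain, was higher by 2.48 ± 0.15. Of 33 targets of NF-κB, the pathway that IKKβ switches on, 4 were higher and 4 lower (median -0.12). That is 12.1% each way, against 16.2% higher and 12.5% lower over all genes. Bcl2l1 was at 0.53 ± 0.056, Icam1 at -0.58 ± 0.085 and Nfkbia at -0.09 ± 0.11 (not called). Without Control replicate 3 or active IKKβ replicate 3 the list had 2 higher, without active IKKβ replicate 1 it had 1 lower, and on library totals 14 were lower.

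All 10 tested MHC class II genes had a negative difference and 7 were called (median -0.75). H2-Ab1 had 40.1, 85.2 and 183 CPM in rich and 58.6, 80.3 and 201 CPM in poor libraries, so the classes overlapped, and the difference of -0.69 ± 0.14 (edgeR adjusted p = 0.00495) came from the model with the genotype term. With no genotype term 0 of the 10 were called, and without Control replicate 3 the count was 1. Markers of antigen-presenting cells had negative medians too. Of 9 dendritic and Langerhans cell genes 1 was lower (11.1%, near the 12.5% over all genes), with a list median of -0.71. It was the Langerhans cell lectin gene Cd207 (-0.88 ± 0.26). That call was lost without Control replicate 3, Stat3 loss replicate 3 or combined replicate 2. Macrophage genes had a median of -0.53. The summed level of the dendritic list was 145 to 185 CPM in rich and 141 to 199 CPM in poor libraries. Its highest member was the epithelial cell adhesion gene Epcam, at 72.6 to 142 CPM in rich and 105 to 158 CPM in poor libraries. The sum therefore says little about dendritic cells, whose part in the MHC class II difference was not tested. Of 24 interferon-stimulated genes 3 were lower and 0 higher (median -0.35), the same 12.5% as over all genes: Usp18 (-0.89 ± 0.21), Rtp4 (-0.97 ± 0.29) and Ifi27l2a (-1.04 ± 0.33). Rtp4 and Ifi27l2a lost their calls without Control replicate 2 or 3, active IKKβ replicate 1 or 2, or combined replicate 2 or 3.

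Energy, redox and stress genes gave smaller differences. Glycolysis was higher in 10 of 17 and lower in 0 (median 0.36), with Aldoc (1.18 ± 0.14), Pgam1 (0.90 ± 0.21) and Tpi1 (0.68 ± 0.10) at the top. The count was 6 without active IKKβ replicate 1 and 3 with a term for the replicate number. Oxidative phosphorylation genes had 2 of 45 higher and 4 lower, with 0 lower without Control replicate 3 or combined replicate 2, 14 without Stat3 loss replicate 3 and 38 on library totals. Of 40 redox and xenobiotic genes 12 were higher and 3 lower, with the corneal and oesophageal aldehyde dehydrogenase Aldh3a1 at 3365, 4936 and 6035 CPM against 1402, 2027 and 2701 CPM (1.45 ± 0.14, edgeR adjusted p = 3.86e-05) and Sod1 at -0.68 ± 0.088. Autophagy and lysosome genes had 10 of 27 higher and 2 lower, with the lysosomal protease gene Ctsd at 0.89 ± 0.12. On library totals the redox list had 6 higher and 14 lower and the autophagy list 2 higher and 12 lower. Without Control replicate 3 the autophagy list had 6 higher. Immediate early genes had 8 of 30 higher and 1 lower (median 0.42), among them the EGF-family ligand Ereg (1.67 ± 0.14). Fos (1.33 ± 0.75), Jun (0.52 ± 0.32) and Atf3 (1.33 ± 0.89) were not called. The immediate early list had 4 higher without Control replicate 3, 16 without combined replicate 2 and 3 with a term for the replicate number. Heat shock genes had 6 of 24 higher and 1 lower, with Hspb1 at 0.96 ± 0.084. The list had 3 higher without Control replicate 3, and 2 higher and 5 lower on library totals. Clock genes had 2 of 19 higher and 1 lower, and Dbp (-1.52 ± 0.65) and Per2 (-1.50 ± 0.53) did not pass the test. The lower clock genes numbered 0 without any 1 of 6 libraries (Control replicate 2 or 3, active IKKβ replicate 2, Stat3 loss replicate 1, combined replicate 1 or 2), 7 without Stat3 loss replicate 2 and 10 on library totals.

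Over all called genes the differences ran from -3.28 to 3.18. Genes named by size also had to reach a mean log2 CPM of at least 1 with 1 sign in all 4 genotypes. Among those named, the 12 lowest were expressed at a low level and had smaller differences than the 12 highest. They ran from -1.57 in Camkv, a kinase-like gene of neurons (0.733, 1.47 and 2.40 CPM against 3.25, 4.50 and 5.47 CPM), to -1.23 in Ncrna00085, while the 12 highest ran from 2.38 in S100a7a to 2.85 in Cryab. Ggt1, which breaks down glutathione outside cells, differed by -1.35 ± 0.27 and Gli1, a target of Hedgehog signalling, by -1.31 ± 0.31. The call of Gli1 was lost without active IKKβ replicate 1 or combined replicate 2. Cxcr5 (-1.54 ± 0.36), Cd52 (-1.26 ± 0.24), Dpep2 (-1.28 ± 0.30) and Cd163l1 (-1.32 ± 0.42), genes of immune cells, were among them. Cd163l1 lost its call when any of 7 single libraries was left out, and Cxcr5 without active IKKβ replicate 1. Cd52 and Dpep2 were not called without the genotype term.

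Markers of cells outside the epithelium were present in both classes. Of 20 fibroblast and matrix, 14 endothelial, 12 smooth muscle and 9 adipocyte genes, 0 were called in either direction by the main edgeR model. Of these 55, 2 had an unadjusted edgeR p below 0.05, and DESeq2 called 3. Other edgeR settings called some fibroblast genes lower: 7 with replicates 2 and 3 only, 3 on library totals and at most 2 with 1 library left out. Summed levels overlapped: fibroblast genes took 1194 to 3476 CPM in rich and 1204 to 4247 CPM in poor libraries, and smooth muscle genes 1094 to 4749 and 1224 to 2406 CPM. Macrophage genes summed to 64.4 to 208 CPM in rich and 74.6 to 410 CPM in poor libraries. Of 14 tested 2 were lower (14.3%, near the 12.5% over all genes), Ccr2 (-1.54 ± 0.46) and Tyrobp (-0.98 ± 0.31). Both calls were lost without Control replicate 2 or 3, Stat3 loss replicate 3 or combined replicate 2. T cell markers were near the limit of detection, with Cd3e at 0 to 0.87 CPM and 0.09 to 1.84 CPM. Of 6 T and NK cell genes 1 was lower (16.7%, against 12.5% over all genes). It was Cd3e (-1.28 ± 0.41), a call lost without any of 7 single libraries. Of B cell markers none reached 1 CPM in any library. Of 15 nerve and Schwann cell genes 3 were higher and 1 lower, near the 28.6% called over all genes. Tubb3, a neuronal tubulin gene, was the highest at 1.83 ± 0.27, and Ngfr, which is also in the basal list, was the lower one (-0.49 ± 0.13). Without Control replicate 3 the nerve list had 1 higher and 0 lower. Of 7 tested neutrophil, mast cell and eosinophil genes 2 were higher, Cxcr2 (7.51, 16.2 and 28.7 CPM against 1.92, 3.87 and 7.99 CPM, 2.11 ± 0.21) and S100a9, and 8 of the 14 members in the files stayed below 1 CPM in every library. Gastric and glandular genes stood apart in 1 library of each class, at 1858 CPM in active IKKβ replicate 1 and 163 CPM in Stat3 loss replicate 3 against at most 24.5 CPM elsewhere, and 0 of their 8 tested genes were called. Skeletal muscle genes summed to 3029 CPM in Stat3 loss replicate 3 and 597 to 1890 CPM in the others, with 1 of 23 called. Tpm2 was the highest member of that sum. The list median was -2.79 within Control, -2.03 with active IKKβ, 3.14 within Stat3 loss and -2.39 within the combined group. It was -0.72 in the main model and -2.07 without Stat3 loss replicate 3. Muscle transcripts were thus mostly lower in rich libraries outside the Stat3 loss group. Leaving out active IKKβ replicate 1 and Stat3 loss replicate 3 together left 2097 genes higher and 1192 lower, and the counts of the cornified envelope, suprabasal, ceramide and cholesterol lists were then 20, 24, 22 and 27. The part of other cells in the differences was not tested.

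**Figure D4:**
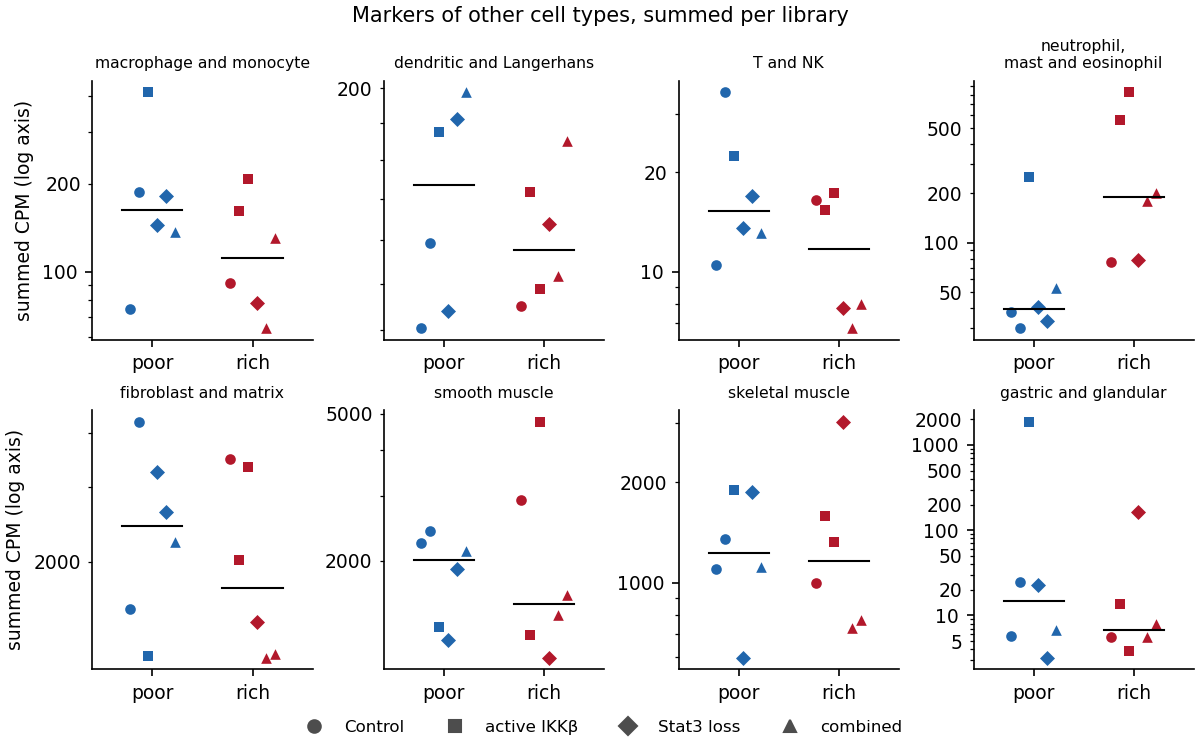
Summed CPM of the markers of 8 other cell types on log axes in each poor (blue) and rich (red) library, with the symbol giving the genotype and the bar the class median. The classes overlap in every panel, and the gastric panel is led by 1 library with active IKKβ and 1 with Stat3 loss. The dendritic sum has the epithelial gene Epcam as its highest member.

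The main epithelial lists had positive medians in all 4 genotypes. Within Control, active IKKβ, Stat3 loss and the combined group, the median of the suprabasal list was 0.89, 0.92, 0.92 and 1.12, that of the ceramide list 1.06, 1.26, 0.74 and 0.95 and that of the protease list 1.05, 1.12, 0.85 and 1.22. The cornified envelope list ranged most, at 1.89, 1.68, 1.19 and 2.37, with Stat3 loss, whose rich library was closest to the threshold, at the lower end. A test of whether the difference itself depended on active IKKβ called 1 of 14434 genes (0.00693%; 577 at an unadjusted p below 0.05), and the DESeq2 Wald test called 24. The gene was Cryab, for αB-crystallin, a small heat shock protein that is abundant in lens and muscle. Rich libraries with active IKKβ held 362, 367, 435 and 476 CPM of it, the 2 rich libraries without active IKKβ held 42.8 and 62.2 CPM, and all 6 poor libraries held 14.2 to 25 CPM, with or without active IKKβ. The rich-poor difference was larger with active IKKβ by 3.15 ± 0.25 (SE) on the log2 scale (edgeR adjusted p for the interaction = 0.00201). The interaction stayed called when each library was left out in turn, with an adjusted p of at most 0.0344, and was not called with the share as a continuous term (adjusted p = 0.0819). With 2 rich libraries without and 2 poor libraries with active IKKβ, each arm of this test rests on few libraries. The rich-poor difference of Cryab over all genotypes (2.85 ± 0.69, edgeR adjusted p = 0.0188) was no longer called without active IKKβ replicate 1.

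The same test for Stat3 loss called 3 genes (0.0208%; 963 at an unadjusted p below 0.05): Muc19, Duox2 and Prss22 (edgeR adjusted p = 0.0308 for each). DESeq2 called 27. Muc19, a gel-forming mucin of glands, was at 14.4 CPM in active IKKβ replicate 1, 2.02 CPM in Stat3 loss replicate 3 and at most 0.157 CPM in the other 10. Duox2, an oxidase that makes hydrogen peroxide, was at 15.2 and 4.53 CPM in the same libraries and at most 2.40 CPM elsewhere. These are the libraries in which gastric genes stood apart, and without active IKKβ replicate 1 the count was 0. It was also 0 without active IKKβ replicate 2 or 3, Stat3 loss replicate 1 or 2, or combined replicate 2 or 3. Prss22, a tryptase-like protease, was higher in the rich library of the Stat3 loss group, 22.4 CPM against 7.83 and 6.59 CPM in its poor libraries, and did not separate the classes in Control (14.3 CPM against 14.1 and 16.7 CPM). In the combined group it had 11.6 and 12.8 CPM in rich libraries and 4.41 CPM in the poor one. With active IKKβ it had 18.7 and 15.7 CPM in rich libraries and 21.4 CPM in the poor replicate 1. None of the 3 genes was called without Stat3 loss replicate 3.

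Rich libraries were 1 or 2 of 3 in each group, so each genotype comparison was fitted without and with the rich/poor term. Active IKKβ against Control gave 134 called genes (0.948%) in a fit without the rich/poor term and 329 (2.28%) with it, of which 133 were shared. The higher genes went from 126 to 265 and the lower ones from 8 to 64. For the combined group against Control the count went from 124 (0.877%) to 403 (2.79%), with all 124 kept, and from 44 lower and 80 higher genes to 184 and 219. The comparisons share the Control libraries, so their counts are not independent. Stat3 loss against Control gave 0 called genes by edgeR either way (1061 and 1870 at an unadjusted p below 0.05), and 324 by DESeq2 with the term.

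**Figure D5:**
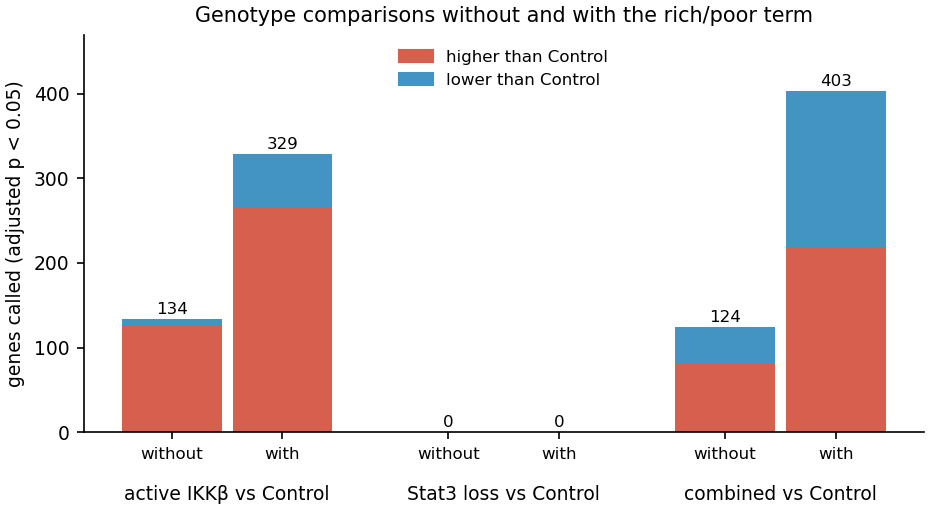
Number of genes called (edgeR, adjusted p below 0.05) in each genotype group against the shared Control libraries, without and with the rich/poor term in the model, split by direction. The total rises from 134 to 329 for active IKKβ and from 124 to 403 for the combined group, and is 0 both times for Stat3 loss.

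Several genes, chosen after their values were seen, show how far the term moved a genotype difference. Il23a, a cytokine subunit under NF-κB control, was higher with active IKKβ by 4.64 ± 0.50 with the term and 4.54 ± 0.51 without it, and Nfkbia by 1.14 ± 0.16 and 1.11 ± 0.17. Of 33 NF-κB targets, 15 were called higher with the term and 11 without it. Of 10 MHC class II genes, 8 were called higher with active IKKβ with the term and 2 without it, and H2-Ab1 was at 1.70 ± 0.20 (edgeR adjusted p = 0.00204) and 1.41 ± 0.34 (edgeR adjusted p = 0.0982). In the combined group, some differentiation genes were called lower than Control with the term. S100a7a was at -0.22 ± 0.91 (edgeR adjusted p = 0.975) without the term and -1.11 ± 0.18 (edgeR adjusted p = 0.00947) with it, and Sprr1a went from -0.68 ± 0.94 (edgeR adjusted p = 0.879) to -1.66 ± 0.27 (edgeR adjusted p = 0.0117). The chaperone gene Clu went from -0.57 ± 0.46 to -0.92 ± 0.098. DNA replication genes were lower in the combined group in 28 of 40 with the term and 20 without it. Of the 329 and 403 genes called with the term, 121 and 164 were also called between rich and poor libraries. Of the 134 and 124 called without it, 14 and 5 were. Over all tested genes 28.6% were called between rich and poor libraries. The calls with the term come from the same fit as the rich and poor calls, so this overlap is not independent. The term compares libraries within the same class, not at an equal share, and a genotype effect on class membership would be removed with it. Within both classes the combined libraries had lower shares than Control. Rich ones held 11.6% and 13.4% against 13.9%, and the poor one 4.05% against 5.22% and 6.22%. The part of this leftover difference in the lower differentiation genes of the combined group was not tested. With single libraries left out the counts with the term ran from 146 (without Control replicate 3) to 371 for active IKKβ and from 115 (without combined replicate 2) to 498 for the combined group.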

How the data were processed

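Gene-level read counts were deposited by the authors for each of the 12 libraries. Per the submitters' processing notes, cutadapt 1.13, STAR, HTSeq 0.6.1p1 and DESeq2 were used with build mm10; the strand setting is not given in the sources used here. The classes come from the count of Krt4 and Krt13 as a percent of the total count, computed here from the deposited counts. The main model was edgeR 4.0.16 quasi-likelihood (R 4.3.3, TMM scaling, edgeR's default expression filter, robust estimation) on the counts as deposited, with genotype and class as terms; Krt4 and Krt13 stayed in the totals and were dropped before testing. limma 3.58.1 and DESeq2 1.42.0 were alternatives. CPM are on TMM-scaled totals. The scripts were tested on simulated counts.

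The classes and gene lists were chosen with earlier results of these data known. Named genes were a fixed set of markers, the 3 members of each list and the 5 genes of each interaction with the smallest p, and the 12 called genes highest and the 12 lowest by log2 difference among those with a mean log2 CPM of at least 1 and 1 sign in all 4 genotypes (without sex-linked genes, predicted models, haemoglobins or antigen receptor genes); further list members are printed as examples, picked with their values known. Among 980 list entries, 952 matched a symbol in the files, 19 of them by an older symbol. Alternatives were other scalings, filters and tests, the share as a continuous term, no genotype term, a term for the replicate number, and libraries left out. No library was a copy of another: of 66 pairs even the closest differed beyond sampling noise (chi-square divided by its degrees of freedom, 26.1).

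A few genes are not reported here.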

Additional observations from a re-analysis of the deposited data

Results flagged for a closer look

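In 362 sets of 6 libraries (each gene named, list sum or library measure, in each class), 45 had a highest or lowest library separated from the rest by more than Dixon's 95% limit (12.4%, where chance gives about 1 in 20). Several of these sets share genes or libraries. The sets also mix genotypes. Active IKKβ replicate 1 and combined replicate 2 were the only poor libraries of their genotypes, and Stat3 loss replicate 3 the only rich library of its genotype. For these libraries, standing apart cannot be told from a genotype difference.

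Active IKKβ replicate 1 was the highest poor library in Cd163l1 (17.7 CPM), Cd3e (1.84 CPM), Duox2 (15.2 CPM), Muc19 (14.4 CPM), Krt1 (243 CPM), Krt16 (131 CPM), Krt6b (313 CPM), S100a8 (71.9 CPM), S100a9 (172 CPM) and Sprr2e (0.519 CPM). Its sums were also the highest for antimicrobial (5793 CPM), gastric (1858 CPM), macrophage (410.1 CPM), mucous gland (3459 CPM) and neutrophil, mast cell and eosinophil genes (253 CPM), and it had the most genes detected, 16799.

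Combined replicate 2, the library with the lowest keratin share, was the lowest poor library in Alox12b (196 CPM), Dsp (1104 CPM), Grhl3 (168 CPM), Ivl (1.16 CPM), Lor (698 CPM), Serpinb12 (216 CPM) and the summed cornified envelope (3436 CPM). It was the highest poor library in Atf3 (81.0 CPM), Fos (97.8 CPM) and summed immediate early genes (2565 CPM).

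Stat3 loss replicate 3, the rich library nearest the threshold, was the lowest rich library in Notch3 (206 CPM) and the highest in Lfng (43.9 CPM), Duox2 (4.53 CPM), Muc19 (2.02 CPM), Rtp4 (2.62 CPM) and Upk1b (56.2 CPM). Its sums of gastric (163 CPM), mucous gland (656 CPM) and skeletal muscle genes (3029 CPM) were the highest of the rich libraries.

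The other libraries set apart were Control replicate 2 in Krt5 (16096 CPM) and summed adipocyte genes (198 CPM), Control replicate 1 in Ereg (22.0 CPM), Stat3 loss replicate 1 in Rtp4 (5.18 CPM), and active IKKβ replicate 3 in Fos (142 CPM) and Sprr2e (0.602 CPM), all highest of their class. Combined replicate 1 was highest in Aloxe3 (372 CPM), Gli1 (14.6 CPM) and Klk11 (541 CPM), and combined replicate 3 was lowest in Rfc3 (12.6 CPM).

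The rich-poor difference itself differed with active IKKβ for Cryab (edgeR adjusted p = 0.00201) and with Stat3 loss for Muc19, Duox2 and Prss22 (edgeR adjusted p = 0.0308 for each).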

How the results depend on the processing

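Of 143 called genes that were named or listed, 71 kept their direction and call in every alternative and 141 never changed sign with a call at stake; the exceptions were Wnt4 on library totals (-0.035) and Cd207 without the genotype term (0.10, adjusted p = 0.937). Calls between rich and poor numbered 7792 on library totals (1006 higher, 6786 lower) and 1446 with replicates 2 and 3 only (1123 higher, 323 lower). Without the gastric-rich libraries 1192 were lower. With single libraries left out the total ran from 2324 to 4500, with 1490 to 2451 higher and 834 to 2049 lower.

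The labels do not say that the replicate number pairs the libraries, and not every same-numbered pair correlated above 0.1 (9 of 18 with the group means removed), so it was not treated as a pairing. As a hint from the data, 8 of 12 libraries correlated best with their own number, and 3 of 12 with the class removed too. Replicate 1 was female in every group, and replicate 3 was rich in every group. With the replicate block 1727 genes were called (1318 higher, 409 lower), and 3 and 0 for the interactions with active IKKβ and Stat3 loss.

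For the genotype comparisons with the rich/poor term, DESeq2 called 748 genes for active IKKβ, 324 for Stat3 loss and 978 for the combined group. The edgeR counts were 329, 0 and 403 with the term and 134, 0 and 124 without it. DESeq2 was not run without the term. With single libraries left out the edgeR counts with the term ran from 146 to 371, 0 to 81 and 115 to 498. The interactions had 24 and 27 calls by DESeq2. By edgeR they had 0 and 0 with the share as a continuous term, and 1 to 2 and 0 to 20 with single libraries left out. The cause of these shifts was not tested. Genes near 1 CPM rest on few counts, so a missed call there shows no equality. The setting that left out active IKKβ replicate 1 and Stat3 loss replicates 2 and 3 together was chosen after seeing the data and gave 3311 calls.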
